A study of Mus musculus with 11 samples.

Results

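The genes of MHC class I antigen presentation were followed in colonic epithelial cells of mice fed without or with cellulose. They are the 10 genes B2m, H2-K1, H2-D1, H2-T23, Tap1, Tap2, Tapbp, Nlrc5, Erap1 and Cd1d1, picked by symbol from a table of 52550 genes. All 10 were found and all 10 passed the filter on low counts, as did 15044 genes in all. RNA was read from 6 mice on a fiber-free diet (FFD) and 5 mice on a diet whose only fiber was cellulose (CD, 7% cellulose), with 1 library per mouse. All mice were RAG1 KO on the C57BL/6 strain, had been on their diet for 4 weeks and then drank 1.5% DSS (dextran sulfate sodium, a polymer that injures the colonic epithelium) for 5 days, so CD mice were treated as well. Without Rag1 no mature T or B cells form, while natural killer cells, other innate lymphoid cells and myeloid cells remain. No age is stated for the mice in the sources used here.

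MHC class I molecules show fragments of a cell's own proteins on its surface. Proteasomes cut the proteins, the transporter TAP carries the peptides into the endoplasmic reticulum, the peptidase ERAP1 trims them, and tapasin holds an empty class I heavy chain beside TAP until a peptide is bound together with beta-2 microglobulin. CD8 T cells and natural killer cells read the result. In epithelial cells the pathway is known to be induced by interferon gamma, in large part through NLRC5, which works at class I promoters together with the RFX complex, CREB family factors and NF-Y. CD1d is built like a class I molecule, also pairs with beta-2 microglobulin and presents lipids to natural killer T cells.

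Total counts ran between 10374154 and 27973285 in FFD mice, with FFD mouse 4 lowest, and between 20853535 and 28588266 in CD mice. Rag1 itself had 8 to 30 counts per FFD mouse and 22 to 40 per CD mouse. Whether the counted reads lie in the deleted part is not given, and both diets carry the deletion, so this checks no label. The cells matched their epithelial label: the summed level of 9 epithelial markers was 12961 to 18399 CPM (read counts per 1000000 of the normalized library total) in FFD mice and 10386 to 13159 CPM in CD mice. Of the 8 T and B cell markers, the sum was 1.11 to 2.12 CPM in FFD mice and 1.33 to 2.07 CPM in CD mice. The sample labels number every CD mouse 1 and every FFD mouse 2, and if this number marks a cage or a batch, it cannot be told apart from the diet.

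RefSeq start-site windows of GRCm38.p6 were found for 7 of the 10 genes, named B2m, H2-K1, H2-D1, H2-T23, Tap1, Tapbp and Erap1. Of these, 6 are printed from 250 bases before to 50 bases after the start site, to set the heavy chains and B2m, which were higher in FFD mice, beside Tap1 and Erap1, which did not pass the test. The window of Tapbp, which did not pass either, is not printed. Capitals mark matches on either strand to 6 motifs. They are GAAA repeated after any 2 bases (an interferon-stimulated response element, in 3.44% of all 32851 windows of this length), AGTTTC (the start of the interferon response sequence of class I promoters, 15.8%, which can overlap the repeat), GGATTCC (the core of a kappa B site, 3.79%), TGACG (the core of the X2 box, 20.8%), CCAAT (the Y box, 37.4%) and TTC followed by GAA after any 3 bases (a gamma-activated site, 8.3%). The windows are chr2:122147437-122147736 on the + strand for B2m, chr17:34000298-34000597 on the - strand for H2-K1, chr17:35262844-35263143 on the + strand for H2-D1, chr17:36032652-36032951 on the - strand for H2-T23, chr17:34187306-34187605 on the + strand for Tap1 and chr13:74639603-74639902 on the + strand for Erap1. H2-K1 has another listed start site close by, whose window is not printed.
B2m: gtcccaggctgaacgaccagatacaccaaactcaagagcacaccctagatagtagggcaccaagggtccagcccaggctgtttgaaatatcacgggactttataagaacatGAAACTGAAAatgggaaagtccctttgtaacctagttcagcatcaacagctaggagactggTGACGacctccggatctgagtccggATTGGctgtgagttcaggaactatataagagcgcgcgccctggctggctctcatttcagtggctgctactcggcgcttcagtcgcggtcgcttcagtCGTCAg
H2-K1: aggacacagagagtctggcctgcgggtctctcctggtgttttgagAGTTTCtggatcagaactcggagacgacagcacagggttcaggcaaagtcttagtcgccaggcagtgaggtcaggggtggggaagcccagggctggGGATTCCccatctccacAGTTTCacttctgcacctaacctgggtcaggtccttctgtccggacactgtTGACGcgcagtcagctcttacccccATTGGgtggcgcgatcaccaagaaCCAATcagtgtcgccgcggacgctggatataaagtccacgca
H2-D1: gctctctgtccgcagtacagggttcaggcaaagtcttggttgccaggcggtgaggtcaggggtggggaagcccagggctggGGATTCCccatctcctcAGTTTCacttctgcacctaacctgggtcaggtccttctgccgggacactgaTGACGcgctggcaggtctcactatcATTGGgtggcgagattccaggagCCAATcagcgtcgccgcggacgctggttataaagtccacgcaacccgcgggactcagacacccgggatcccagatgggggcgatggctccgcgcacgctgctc
H2-T23: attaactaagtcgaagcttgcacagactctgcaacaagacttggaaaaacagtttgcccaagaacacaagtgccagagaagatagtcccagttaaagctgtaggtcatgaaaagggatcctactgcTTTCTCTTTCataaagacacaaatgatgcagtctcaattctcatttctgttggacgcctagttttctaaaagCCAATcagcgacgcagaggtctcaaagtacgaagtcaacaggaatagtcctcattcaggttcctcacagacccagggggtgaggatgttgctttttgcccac
Tap1: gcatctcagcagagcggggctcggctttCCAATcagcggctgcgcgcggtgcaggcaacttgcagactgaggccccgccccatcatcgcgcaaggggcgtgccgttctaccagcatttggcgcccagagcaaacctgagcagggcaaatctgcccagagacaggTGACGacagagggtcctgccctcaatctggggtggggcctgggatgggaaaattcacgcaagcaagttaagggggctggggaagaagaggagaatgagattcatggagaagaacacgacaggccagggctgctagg
Erap1: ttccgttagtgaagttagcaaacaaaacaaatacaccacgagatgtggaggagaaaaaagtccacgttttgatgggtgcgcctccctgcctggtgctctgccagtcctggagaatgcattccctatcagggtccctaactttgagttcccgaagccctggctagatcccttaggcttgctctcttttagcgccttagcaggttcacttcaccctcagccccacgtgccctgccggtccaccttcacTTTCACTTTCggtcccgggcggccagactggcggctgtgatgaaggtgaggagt

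H2-K1 and H2-D1 shared an arrangement, a kappa B core followed by AGTTTC, an X2 core and the Y box in both orientations. Counted from the start base as 0, the kappa B core began at position -109 in H2-K1 and at -169 in H2-D1, and AGTTTC followed at -92 in H2-K1 and at -152 in H2-D1. These positions depend on the listed start site, and that of H2-D1, at 35263094, lies inside its gene span, which begins at 35262730. H2-K1 held another AGTTTC farther upstream, at -205. B2m held the GAAA repeat as GAAACTGAAA at -139, where it overlaps AGTTTC on the opposite strand, with an X2 core at -78 and a Y box at -53. H2-T23 held the repeat on the opposite strand as TTTCTCTTTC at -124 and a Y box at -52. Tap1 held an X2 core at -86, a Y box farther upstream at -222 and neither interferon element in these letters. Erap1 held the repeat as TTTCACTTTC at -4. No printed window held the gamma-activated site. The motifs were given their present, partly shorter letters after longer forms had been searched in these windows, which widened the matches of the class I interferon response, kappa B and X2 motifs. A match is a run of letters and was not measured as a bound site in these cells.

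In FFD mice, 7 of the 10 genes were higher and 0 were lower than in CD mice, with an adjusted p under 0.05 in edgeR's quasi-likelihood test over all tested genes. Over all 15044 tested genes, 36.8% were called, 18.2% as higher and 18.6% as lower. The higher genes were Cd1d1, Nlrc5, Tap2, H2-D1, B2m, H2-T23 and H2-K1. Tap1, Tapbp and Erap1 did not pass. The median log2 fold change of the 10 genes was 0.51, against -0.03 over all tested genes. No gene was lower at an unadjusted p under 0.05, with DESeq2 or with limma-voom, while 8 were higher at an unadjusted p under 0.05 and with DESeq2, and 7 with limma-voom. None of the 10 separated the diets fully, and 8.91% of all tested genes had all FFD mice above all CD mice.

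**Figure D1:**
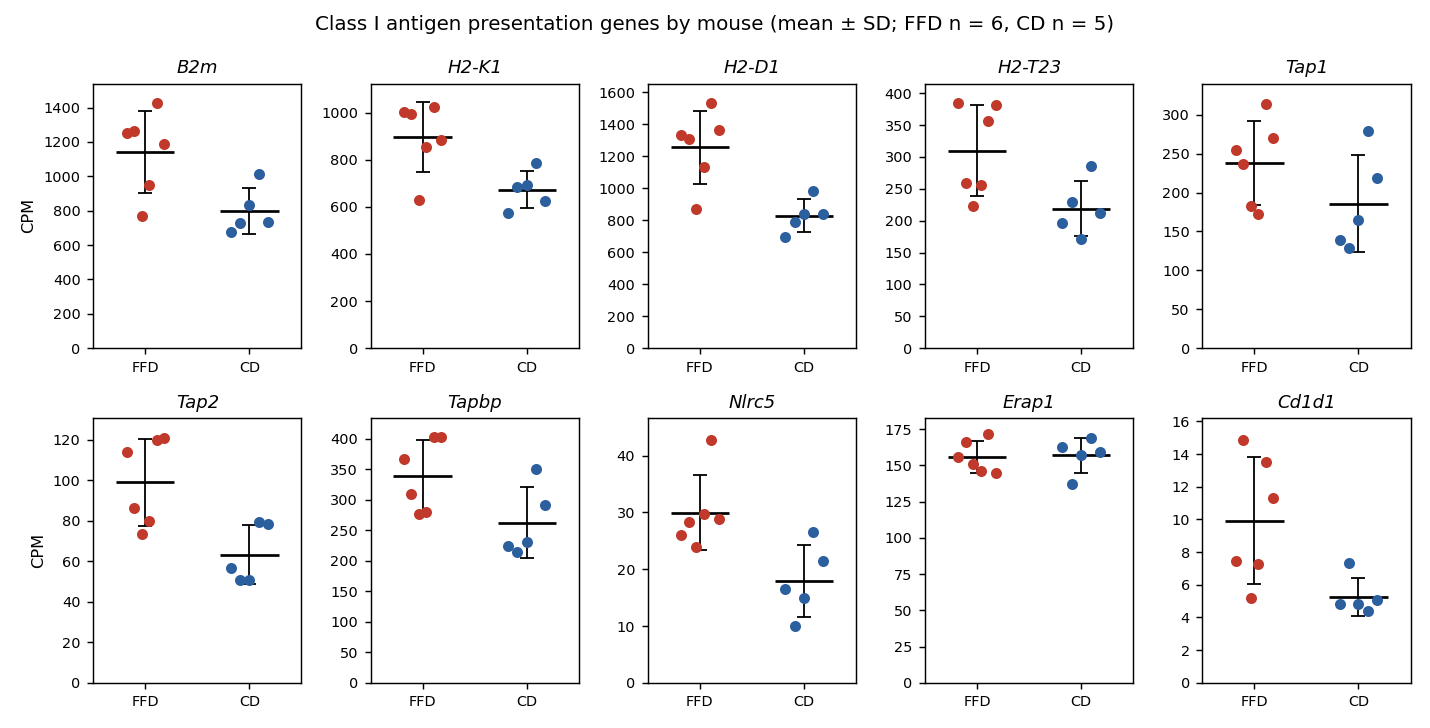
Normalized read counts (CPM, vertical axes starting at 0, 1 panel per gene) of the 10 class I genes in 6 FFD mice (red) and 5 CD mice (blue). Each point is 1 mouse, and the bars are the mean and the SD. In every panel the points of the diets overlap, and for Erap1 the means of 156 CPM in FFD mice and 157 CPM in CD mice lie side by side.

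The scaling of libraries weighed on these counts. Without TMM normalization, on library totals alone, 4 of the 10 genes stayed higher in FFD mice, namely H2-D1, Tap2, Nlrc5 and Cd1d1, while B2m, H2-K1 and H2-T23 no longer passed. The calls over all genes also tilted, with 1636 higher and 4863 lower without TMM and 2740 higher and 2792 lower with it, as the median log2 fold change of all genes moved to -0.19. The median of the 10 genes was then 0.35. In bulk RNA, more cells of a type and more RNA per cell cannot be told apart.

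Nlrc5, the transactivator of class I genes, stood at 23.9 CPM in the lowest FFD mouse, 28.6 at the median and 42.7 in the highest, against 10.04, 15.03, 16.5, 21.5 and 26.5 CPM in the CD mice. FFD mouse 5 lay far above the other FFD mice, and 4 of 6 FFD mice exceeded the highest CD mouse. Means were 29.9 ± 6.61 CPM in FFD mice and 17.9 ± 6.31 CPM in CD mice (SD, n = 6 and 5, as for all means here). The difference came to 1.67-fold, a log2 fold change of 0.74 ± 0.21 (SE) with an edgeR adjusted p of 0.0172. This call was kept with each mouse left out in turn, at log2 fold changes between 0.60 and 0.93. Nlrc5 (chr8:94434356-94527272, GRCm38) is a long gene at a low level, and 295 to 1066 reads were counted per FFD mouse and 279 to 807 per CD mouse.

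H2-D1 and H2-K1 encode the classical class I heavy chains of this strain, the chains that hold peptide for CD8 T cells. H2-D1 (chr17:35262730-35267499) was at 869.9 CPM in the lowest FFD mouse, 1319 at the median and 1534 in the highest, against 698, 788, 839.7, 839.8 and 980.2 CPM in the CD mice. All FFD mice but mouse 3 lay above every CD mouse. Mean levels of H2-D1 were 1256 ± 229 CPM in FFD mice and 829.2 ± 102 CPM in CD mice, 1.52-fold apart (log2 fold change 0.60 ± 0.13, edgeR adjusted p = 0.00452). H2-D1 had the lowest p of the 10 genes and kept its call without TMM and with each mouse left out.

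H2-K1 (chr17:33996017-34000347) was at 628, 937 and 1023 CPM in the lowest, the median and the highest FFD mouse, against 575, 624, 686, 691 and 784 CPM in the CD mice. Again FFD mouse 3 was the lone FFD mouse inside the CD range. H2-K1 averaged 897 ± 149 CPM in FFD mice and 672 ± 79.0 CPM in CD mice, 1.34-fold apart (log2 fold change 0.42 ± 0.12, edgeR adjusted p = 0.0191). The call was kept with each mouse left out, with an adjusted p of at most 0.0426. In the annotated transcripts, 8.53% of the 59-base stretches of H2-D1 and 6.19% of those of H2-K1, the length of 1 read, also occurred in other genes, mostly further H2 genes. The treatment of reads with several possible origins is unknown, so levels of H2 genes are uncertain, most of all where a gene with few reads shares stretches with one with many.

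H2-T23 encodes Qa-1, a nonclassical class I molecule that presents signal peptides of other class I chains to the inhibitory receptor CD94-NKG2A. Its level was 223 CPM in the lowest FFD mouse, 308 at the median and 385 in the highest, against 172, 196, 212, 229 and 285 CPM in the CD mice. FFD mice 1, 5 and 6 exceeded every CD mouse, and the other 3 fell within the CD range. H2-T23 averaged 310.1 ± 72.0 CPM in FFD mice and 219 ± 42.7 CPM in CD mice (log2 fold change 0.50 ± 0.16, edgeR adjusted p = 0.0298). This call did not survive the loss of either CD mouse 1 or 3, or of any of FFD mice 1, 5 and 6, where the adjusted p reached 0.0706 and the log2 fold change was 0.43 to 0.48. Of the 59-base stretches of H2-T23 (chr17:36029773-36032855), 10.7% also occurred in other genes.

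B2m encodes beta-2 microglobulin, the light chain that all these heavy chains and CD1d need to reach the cell surface. B2m (chr2:122147686-122153083) was at 767, 1219 and 1428 CPM in the lowest, the median and the highest FFD mouse, against 676, 730.0, 732, 835 and 1015 CPM in the CD mice. FFD mice 1, 2, 5 and 6 exceeded every CD mouse, while FFD mice 3 and 4 fell within the CD range. Means were 1142 ± 240.05 CPM in FFD mice and 798 ± 134 CPM in CD mice, 1.43-fold apart (log2 fold change 0.52 ± 0.15, edgeR adjusted p = 0.0192). No 59-base stretch of B2m occurred in another gene. Its call was kept with each mouse left out, with an adjusted p of at most 0.0424.

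Tap1 and Tap2 encode the subunits of the peptide transporter TAP, and Tap2 passed the test while Tap1 did not. For Tap2 (chr17:34203527-34216321), FFD mice ran from 73.5 CPM over a median of 100.2 to 121 CPM, against 50.6, 50.9, 56.7, 78.3 and 79.6 CPM in the CD mice. CD mice 4 and 5 stood well above the other 3 CD mice, and all FFD mice except mouse 3 exceeded the whole CD group. Tap2 averaged 99.1 ± 21.4 CPM in FFD mice and 63.2 ± 14.6 CPM in CD mice, 1.57-fold apart (log2 fold change 0.65 ± 0.17, edgeR adjusted p = 0.00979), and kept its call with each mouse left out and without TMM. Of the exon bases of Tap2, 18.5% overlap the annotated genes Gm15821 and Gm20496.

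Tap1 (chr17:34187553-34197225) ran from 173 CPM over a median of 246 to 314 CPM in FFD mice, against 128, 139, 165, 218 and 279 CPM in the CD mice. A single FFD mouse, mouse 5, lay above CD mouse 4, the highest CD mouse. Averages were 238 ± 53.8 CPM in FFD mice and 186 ± 62.8 CPM in CD mice (log2 fold change 0.36 ± 0.21, edgeR adjusted p = 0.19), so the difference was within the spread between mice. Without CD mouse 4 it was 0.56 with an adjusted p of 0.0409, the lone case of the 11 in which Tap1 passed. Tap1 shares 3.87% of its exon bases with Psmb9, an immunoproteasome gene that starts beside it on the opposite strand.

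Tapbp encodes tapasin. Its levels (chr17:33915899-33929292) were 277 CPM in the lowest FFD mouse, 339 at the median and 403 in the highest, against 215, 224, 230.3, 292 and 351 CPM in the CD mice. The diets overlapped, with FFD mice 1, 5 and 6 above every CD mouse. Tapbp averaged 339.8 ± 58.4 CPM in FFD mice and 262 ± 58.2 CPM in CD mice (log2 fold change 0.37 ± 0.15), and missed the threshold at an edgeR adjusted p of 0.063. It passed without CD mouse 4 (log2 fold change 0.50, adjusted p = 0.0171), without FFD mouse 3 (0.44, adjusted p = 0.0316), without FFD mouse 4 (0.42) and with DESeq2 (0.40, adjusted p = 0.0304). Of the exon bases of Tapbp, 29.02% overlap the genes Gm19412 and Zbtb22.

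Erap1, the trimming peptidase, was the one gene of the 10 with almost equal means. It was at 145, 153 and 172 CPM in the lowest, the median and the highest FFD mouse, against 137, 157, 159, 163 and 169 CPM in the CD mice. The groups covered the same range. Means were 156 ± 11.1 CPM in FFD mice and 157 ± 12.0 CPM in CD mice (log2 fold change -0.01 ± 0.07, edgeR adjusted p = 0.931). Erap1 (chr13:74639568-74693201) also varied least between mice, with a coefficient of variation of 7.10% in FFD and 7.67% in CD mice, while those of the other 9 genes were between 11.8% and 39.1%. Of the exon bases of Erap1, 11.5% overlap the gene Cast, and 10.6% of the 59-base stretches of Erap1 also occur in Cast.

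Cd1d1 encodes the lipid-presenting CD1d and had the largest fold change of the 10 genes at a low level. FFD mice had 5.17 CPM at the lowest, 9.38 at the median and 14.9 at the highest, against 4.37, 4.82, 4.83, 5.09 and 7.31 CPM in the CD mice. FFD mice 2, 5 and 6 had more than 10 CPM and CD mouse 2 stood above the other CD mice, so that 4 of 6 FFD mice exceeded all CD mice. Cd1d1 averaged 9.93 ± 3.88 CPM in FFD mice and 5.28 ± 1.16 CPM in CD mice, 1.89-fold apart (log2 fold change 0.92 ± 0.26, edgeR adjusted p = 0.0143). Its counts were 72 to 344 reads per FFD mouse and 109 to 203 per CD mouse. Of the 59-base stretches of Cd1d1 (chr3:86995834-86999441), 17.3% also occur in Cd1d2.

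**Figure D2:**
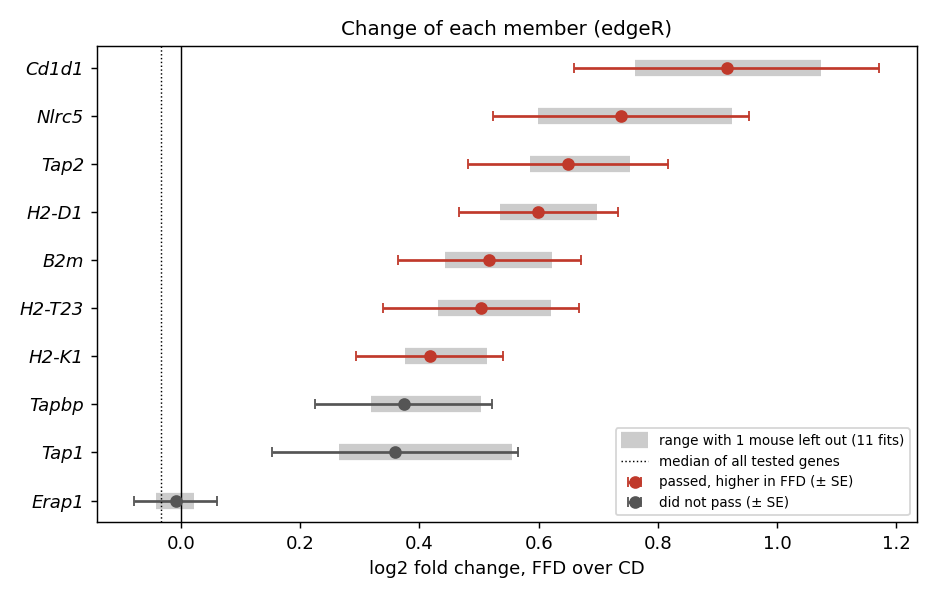
Log2 fold change of FFD over CD (horizontal axis) for each of the 10 class I genes, with the SE as whiskers, and in grey the range over 11 fits that each left out 1 mouse. Red genes passed the test and grey points did not, and the dotted line is the median of all tested genes at -0.03. Cd1d1 at 0.92 and Nlrc5 at 0.74 lie at the top and Erap1 at -0.01 at the bottom.

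The mice differed in their mean level of the 10 genes. On levels scaled per gene over all 11 mice, FFD mouse 5 had the highest mean score (1.39) and the highest level of all mice for 7 of the 10 genes. FFD mice 6, 1 and 2 followed at 0.80, 0.78 and 0.72. FFD mouse 4, the shallowest library, was at -0.04 and FFD mouse 3 at -0.51, below CD mouse 4 at 0.26 and CD mouse 5 at -0.41. CD mice 3, 1 and 2 were lowest at -0.85, -1.005 and -1.14. FFD mouse 3 and CD mouse 4 thus ran against the order of the diets. Without CD mouse 4, 9 of the 10 genes were higher in FFD mice, and without FFD mouse 3 it was 8. Leaving out any other single mouse gave 6 to 8.

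**Figure D3:**
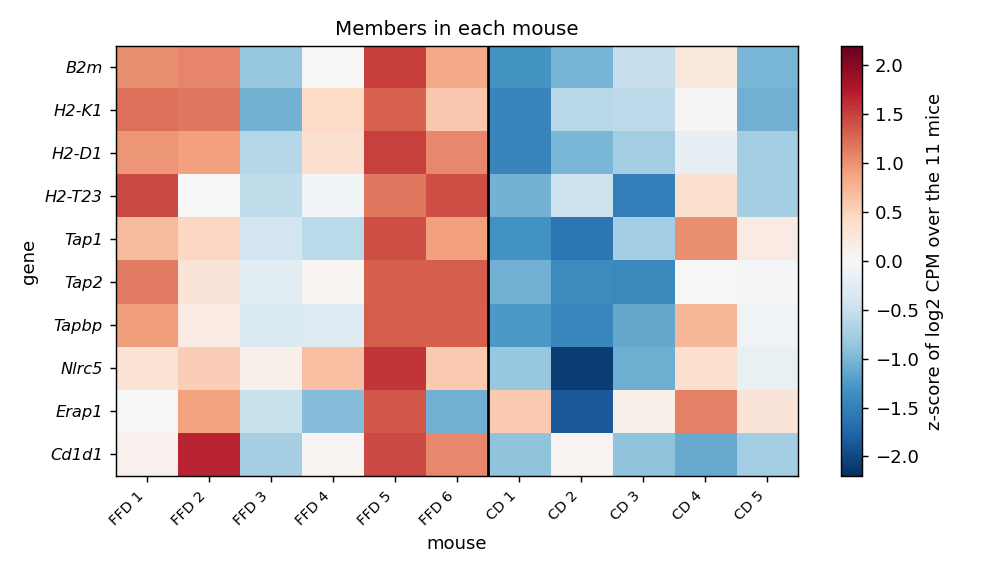
Level of each of the 10 class I genes (vertical axis) in each mouse (horizontal axis, FFD left and CD right of the black line), as a z-score of log2 CPM over the 11 mice. FFD mouse 5 is red for all genes, FFD mouse 3 is mostly blue among the FFD mice, and CD mouse 4 is mostly red among the CD mice.

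Together the 10 genes held 0.335% to 0.482% of all counts in FFD mice and 0.293% to 0.423% in CD mice. Per kilobase of exon, the mean level of B2m was 1328 CPM per kb in FFD mice and 928 CPM per kb in CD mice, above H2-D1 (487 in FFD and 322 in CD mice) and H2-K1 (305 in FFD and 229 in CD mice). H2-T23 with 107 CPM per kb and Tapbp with 93.7 CPM per kb came next in FFD mice, against 75.8 and 72.3 CPM per kb in CD mice. These neighbors differed by less than the larger of their SDs in both diets. Tap1 stood at 43.5 CPM per kb in FFD and 34.0 CPM per kb in CD mice. Tap2 at 26.2 and Erap1 at 21.4 CPM per kb were within their spread in FFD mice, while Tap2 at 16.7 was below Erap1 at 21.6 CPM per kb in CD mice by more than the larger SD. Cd1d1 (3.86 CPM per kb in FFD and 2.06 CPM per kb in CD mice) and Nlrc5 (3.52 CPM per kb in FFD and 2.11 CPM per kb in CD mice) were lowest and within their spread of each other.

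Ratios of 2 genes within a mouse do not depend on library scaling, and 5 were compared by exact two-sided permutation tests over all splits of the mice. The ratio of H2-K1 to H2-D1 reads was 0.646 to 0.759 in FFD mice and 0.743 to 0.870 in CD mice, a log2 difference of -0.18 (exact p = 0.0173, adjusted p = 0.0866). The overlap was small, and 3 of 6 FFD mice lay below all CD mice. Without CD mouse 5 the log2 difference was -0.21 with an adjusted p of 0.0476. Tap1 over Tap2 was 2.16 to 2.74 in FFD mice and 2.45 to 3.51 in CD mice (log2 difference -0.26, exact p = 0.0519, adjusted p = 0.13). The ratio of B2m to both classical heavy chains together was 0.479 to 0.558 in FFD mice and 0.495 to 0.575 in CD mice, with a log2 difference of -0.01 (exact p = 0.918). For H2-T23 over the same heavy chains the log2 difference was -0.02 (exact p = 0.892), and for Cd1d1 over B2m it was 0.33 (exact p = 0.216, adjusted p = 0.361). None of the 5 passed after adjustment, and the smallest p that the design allows is 0.00433.

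Whether mice with more Nlrc5 also had more of the other 9 genes was examined within the 6 FFD mice, in 9 correlations of log2 CPM. Pearson's r of Nlrc5 with the other 9 genes was between 0.40 for H2-T23 and 0.71 for H2-D1, with exact permutation p-values of 0.144 to 0.506 and adjusted p-values of 0.323 to 0.506. Spearman's rho was between 0.14 and 0.60, with exact permutation p-values of 0.242 to 0.803 and adjusted p-values of 0.629 to 0.803. Without FFD mice 3 and 5, the 2 farthest from the median of Nlrc5, r was between -0.82 and 0.21. Those 4 mice span a narrow range of Nlrc5, so these values do not show what the positive values rest on. No relation was shown within FFD mice.

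Of 18 listed further heavy chains and class I-like genes, 17 were in the table, 13 were tested, 4 were higher and 1 was lower in FFD mice, a share near the 36.8% called over all tested genes, with a median log2 fold change of 0.32. H2-T24 was at 4.84 ± 1.62 CPM in FFD mice and 2.07 ± 0.594 CPM in CD mice (log2 fold change 1.23 ± 0.25, edgeR adjusted p = 0.00324), and H2-Q1 was at 11.3 ± 2.39 CPM in FFD mice and 6.89 ± 1.31 CPM in CD mice (0.71 ± 0.17, adjusted p = 0.00633), each without overlap between the diets. Of the 59-base stretches of H2-Q1, 13.3% occur in other genes, among them H2-D1, which had far more reads and was higher as well. H2-T22, a class Ib gene, was also higher (0.47 ± 0.12, adjusted p = 0.0111), though 48.1% of its 59-base stretches occur in other genes. Fcgrt, the heavy chain of the neonatal Fc receptor, which pairs with beta-2 microglobulin too, was higher by 0.44 ± 0.15 (adjusted p = 0.0302) and was chosen here after its value was seen. Its call was lost without TMM and in 4 of 11 fits without 1 mouse. H2-Q10 was the one lower gene, at 3.08 ± 0.232 CPM in FFD mice and 6.78 ± 1.24 CPM in CD mice (-1.14 ± 0.13, adjusted p = 0.000702). All FFD mice lay below all CD mice for H2-Q10, as for 9.59% of all tested genes, and 16.3% of its stretches occur in other genes, among them H2-K1, which had far more reads.

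Of 6 tested genes for the immunoproteasome and the PA28 activator, 0 were higher and 0 were lower in edgeR, DESeq2 or limma-voom, beside 36.8% called by edgeR over all tested genes, and 0 had an unadjusted p under 0.05. Psmb8, a catalytic subunit, averaged 230.4 ± 65.7 CPM in FFD mice and 188 ± 66.2 CPM in CD mice (log2 fold change 0.30 ± 0.23, edgeR adjusted p = 0.326), and Psmb9 had 0.22 ± 0.20 (adjusted p = 0.401). Psmb10 (0.10) and the assembly factor Pomp (-0.07) did not pass either. The standard subunits that these replace were partly lower, 2 of 3, with Psmb5 at -0.25 ± 0.08 (adjusted p = 0.0335) and Psmb6 at -0.22 ± 0.08 (adjusted p = 0.0495), and Psmb7 at -0.21 missed the threshold (adjusted p = 0.0964) but passed without CD mouse 1 (-0.25). These 2 calls were not stable: in 8 of 11 fits without 1 mouse Psmb5 did not pass, and in 9 of 11 Psmb6 did not.

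Of 7 other loading factors 0 were called in edgeR, DESeq2 or limma-voom, and 0 had an unadjusted p under 0.05. Among them the chaperone Calr had a log2 fold change of 0.19 ± 0.10 (edgeR adjusted p = 0.141), the peptide editor Tapbpl 0.21 ± 0.14 (adjusted p = 0.248), and the glucosidase subunits Prkcsh -0.09 and Ganab 0.05. Calr passed without FFD mouse 3 and Tapbpl without CD mouse 4. Of 7 other peptidases that can trim class I peptides, 2 were higher and 2 were lower, beside 18.2% higher and 18.6% lower over all tested genes. Npepps, a cytosolic aminopeptidase, was at 179.6 ± 20.1 CPM in FFD mice and 139 ± 6.28 CPM in CD mice (0.37 ± 0.08, adjusted p = 0.00395), and no mice overlapped. Lnpep, which trims in endosomes, was higher by 0.25 ± 0.08 (adjusted p = 0.0299). Thop1 (-0.24, adjusted p = 0.0305) and Blmh (-0.19, adjusted p = 0.0448) were lower. With 1 mouse left out, Npepps passed each time, while Lnpep did not pass in 7 of 11 fits, Thop1 in 5 and Blmh in 9.

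Interferon receptors and signaling genes numbered 17, and 10 of them were higher and 0 lower in FFD mice, beside 18.2% higher over all tested genes. At an unadjusted p under 0.05, 11 were higher and 0 were lower, and DESeq2 called 11 higher and 0 lower. The median log2 fold change of the 17 was 0.36. Ifngr1, the ligand-binding chain of the interferon gamma receptor, was at 306 ± 51.7 CPM in FFD mice and 185 ± 18.3 CPM in CD mice, with no overlap (log2 fold change 0.72 ± 0.12, edgeR adjusted p = 0.00128). The kinases Jak2 (0.45 ± 0.08, adjusted p = 0.00152) and Jak1 (0.36 ± 0.07, adjusted p = 0.00219) and Il10rb, a chain of the interferon lambda receptor (0.44 ± 0.09, adjusted p = 0.00348), were also higher without overlap. Irf1, an interferon-induced transcription factor chosen here after its value was seen, had 0.15 ± 0.17 (adjusted p = 0.504) and did not pass. Without TMM, 6 of the 17 were higher.

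**Figure D4:**
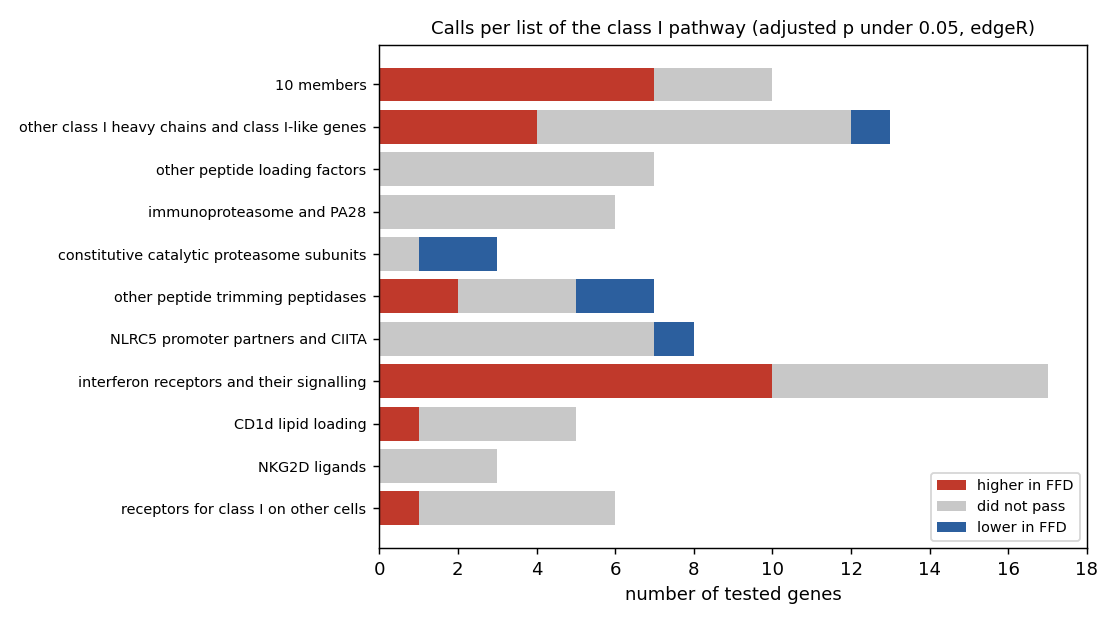
Number of tested genes (horizontal axis) higher in FFD mice (red), not passing (grey) and lower in FFD mice (blue) for the 10 class I genes and for 10 lists of related genes. Red fills 7 of 10 for the class I genes and 10 of 17 for the interferon list, while the loading factors and the immunoproteasome are grey throughout.

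Of 8 tested genes for partners of NLRC5 at promoters (the RFX complex, NF-Y and CREB) and for the class II transactivator, 0 were higher and 1 was lower, beside 36.8% called over all tested genes, with 1 higher and 3 lower at an unadjusted p under 0.05 and 0 higher and 1 lower by DESeq2. Rfxap, a subunit of the RFX complex, was at 11.9 ± 1.34 CPM in FFD mice and 15.2 ± 1.91 CPM in CD mice (log2 fold change -0.35 ± 0.10, edgeR adjusted p = 0.0203), and lost its call without CD mouse 2 or CD mouse 3. Rfxank (0.22, adjusted p = 0.0671), Nfya (-0.16, adjusted p = 0.0671) and Creb1 (-0.18, adjusted p = 0.0864) did not pass. Rfxank passed without CD mouse 5 (0.29) or FFD mouse 3 (0.27), and Creb1 without FFD mouse 3 (-0.21).

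Of 5 genes that load lipids onto CD1d, 1 was higher, beside 18.2% over all tested genes. Npc1, a lysosomal cholesterol transporter, was at 27.1 ± 4.001 CPM in FFD mice and 21.3 ± 1.80 CPM in CD mice (log2 fold change 0.34 ± 0.10, edgeR adjusted p = 0.0217), and lost its call without CD mouse 4. Mttp, a lipid transfer protein, had 0.55 ± 0.22 (adjusted p = 0.0716) and passed without FFD mouse 3 (0.63) or FFD mouse 4 (0.65), and the lysosomal proteins Npc2 (-0.17) and Gm2a (-0.17) did not pass. Of 8 listed ligands of NKG2D, the activating receptor of natural killer cells, 3 were tested and 0 were called by edgeR, DESeq2 or limma-voom or at an unadjusted p under 0.05. H60c had 0.29, Raet1e -0.11 and Ulbp1 -0.03. Of 10 listed receptors that read class I on other cells, 6 were tested and 1, Cd8b1, was higher, at 1.21 ± 0.397 CPM in FFD mice and 0.662 ± 0.157 CPM in CD mice (0.89 ± 0.27, adjusted p = 0.0198). That call was lost when libraries were thinned to the lowest total (0.61). Klrd1 (0.31), Klrc1 (0.38) and Pirb (0.19) did not pass, all at under 1 CPM.

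Since leukocytes carry much MHC class I, their markers are given beside these results. All values named here were chosen after they were seen. The 9 macrophage and monocyte markers summed to 20.7 to 32.6 CPM in FFD mice and 16.3 to 22.4 CPM in CD mice, with 2 of 9 higher, Mrc1 (log2 fold change 1.54, edgeR adjusted p = 0.000863) and C1qb (0.84, adjusted p = 0.0293). The 6 neutrophil markers summed to 3.16 to 11.9 CPM in FFD mice and 1.19 to 4.48 CPM in CD mice. Of 3 tested, S100a8 alone was higher (1.51, edgeR adjusted p = 0.0312), 1 of 3 beside 18.2% over all tested genes. S100a9 (0.88, edgeR adjusted p = 0.119) and Csf3r (0.20, edgeR adjusted p = 0.54) did not pass. The calls of C1qb and S100a8 were lost with limma-voom, with the replicate block and in 5 and 6 of 11 fits without 1 mouse, for S100a8 those without CD mouse 1, 2, 3 or 4 or FFD mouse 2 or 5. The 6 dendritic cell markers summed to 4.13 to 6.40 CPM in FFD mice and 3.10 to 4.56 CPM in CD mice. Of 3 tested, 1 was higher, Itgax (0.56, edgeR adjusted p = 0.0162), while Flt3 (0.03) and Zbtb46 (0.03) did not pass. The call of Itgax was lost when libraries were thinned to the lowest total (edgeR adjusted p = 0.254). Natural killer and innate lymphoid cell markers, 8 in all, summed to 41.7 to 61.7 CPM in FFD mice and 38.1 to 50.3 CPM in CD mice, with Gzmb at a log2 fold change of -0.34 (edgeR adjusted p = 0.156).

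Endothelial markers summed to 3.69 to 5.45 CPM in FFD mice and 4.97 to 7.68 CPM in CD mice, fibroblast and muscle markers to 0.705 to 2.03 CPM in FFD mice and 0.936 to 1.97 CPM in CD mice, and mast cell markers to 19.5 to 38.2 CPM in FFD mice and 30.3 to 56.8 CPM in CD mice. Of 5 tested mast cell markers, 1 was lower, beside 18.6% over all tested genes. It was the protease gene Cma1, at 0.680 ± 0.503 CPM in FFD mice and 4.05 ± 1.71 CPM in CD mice (log2 fold change -2.60, edgeR adjusted p = 0.0018). All FFD mice lay below all CD mice for Cma1, as for 9.59% of all tested genes. Kit (-0.51), Cpa3 (-0.48), Mcpt2 (-0.24) and Mcpt1 (-0.17) did not pass. Kit passed with DESeq2, without TMM and in 3 of 11 fits without 1 mouse. Kit had by far the highest level of the mast cell markers, with means of 22.8 CPM in FFD mice and 32.4 CPM in CD mice. None of the listed markers of any cell type was at 0 in all mice. Of the epithelial markers, 5 of 9 were higher in FFD mice, beside 18.2% over all tested genes, namely Cdh1 (0.51), Vil1 (0.63), Krt20 (1.14), Epcam (0.30) and Krt8 (0.32), and 0 lower. The part of these cell types in the levels of the 10 genes was not tested.

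Across the 11 mice, the genes whose pattern within the diets was most like the mean of the 10 were C2, Upp1, Ube2l6, AW112010 and Il18bp. Likeness was the root mean square difference of scaled log2 CPM after the mean of each diet was removed, among 10043 genes with at least 5 CPM. It was 0.206 for C2, 0.213 for Upp1, 0.224 for Ube2l6, 0.240 for AW112010 and 0.246 for Il18bp, against a median of 1.36 over all candidates. The compared values share their libraries, depth and scaling. C2, a complement component, had a log2 fold change of 0.78 between the diets, Ube2l6, a conjugating enzyme for ISG15, 0.78, and Il18bp, which binds interleukin 18, 1.06.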

How the data were processed

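Colonic epithelial cells were isolated by the authors with DTT, EDTA and a Percoll gradient, and single reads of 59 bp were trimmed and mapped to GRCm38 in CLC Workbench 10.0.1. The authors deposited raw counts of reads per gene, without normalization, for 5 CD and 6 FFD mice. Their processing notes list R 3.5.1, DESeq2 1.22.2 and FastQC. For annotation release, strand use and multiply mapped reads, the settings were: not given in the sources used here.

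From the counts, edgeR 4.0.16 in R 4.3.3 filtered genes (minimum count 10, minimum total 15), normalized by TMM and ran the quasi-likelihood test for diet, with Benjamini-Hochberg adjustment over 15044 genes and a threshold of 0.05. CPM use TMM-normalized totals, and TMM factors were 0.893 to 1.05 in FFD and 1.03 to 1.08 in CD mice. Every library counted as a replicate because each came from its own mouse. Counts of mice of 1 diet differed beyond counting noise (chi-square of at least 11.1 per degree of freedom). Ratios had 0.5 added to each count. Log2 CPM for correlations and likeness used a prior count of 2. The mice are separate animals, and the precision is that of 6 and 5 mice. Gene spans and exon lengths come from GENCODE M21 (GRCm38), and promoters from RefSeq (GRCm38.p6).

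The 10 genes and the lists were chosen with earlier results of these data known, so no list was tested. Values of some listed genes are not reported here. Named genes are the 10 members, up to 4 genes with the smallest p of each list, genes called against the majority of their list and the 5 genes most like the members. Cell type markers, Fcgrt and Irf1 were named outside this rule, after their values were seen. DESeq2 1.42.0, limma-voom (limma 3.58.1), other size factors, no TMM, other filters, a robust fit, a replicate block, each mouse left out and, added after the data were examined, thinned libraries served as alternatives. Simulated data with known changes were used to test the scripts.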

Additional observations from a re-analysis of the deposited data

Results flagged for a closer look

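In 106 groups of 5 or 6 mice that the named genes and gene ratios form, a single mouse stood apart from the rest of its diet in 6 by Dixon's criterion at 95%, and chance gives about 1 in 20. H2-K1 was lowest in FFD mouse 3 at 628 CPM, against 855 to 1023 CPM in the other FFD mice. Nlrc5 was highest in FFD mouse 5 at 42.7 CPM, against 23.9 to 29.7 CPM in the other FFD mice. H2-Q1 was lowest in CD mouse 3 at 4.65 CPM, against 6.80 to 7.80 CPM in the other CD mice. Thop1 was highest in CD mouse 5 at 58.5 CPM, against 45.3 to 48.7 CPM in the other CD mice. Blmh was lowest in FFD mouse 4 at 49.3 CPM, against 57.3 to 62.3 CPM in the other FFD mice, and FFD mouse 4 was also the shallowest library. Ulbp1 was lowest in CD mouse 4 at 3.25 CPM, against 4.94 to 5.54 CPM in the other CD mice. Their causes were not tested.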

How the results depend on the processing

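The direction of 9 of the 10 class I genes was kept under every alternative run, at a median log2 fold change between 0.35 and 0.62, and the strict filter left Cd1d1 untested. Erap1, near 0, was at -0.16 without TMM (edgeR adjusted p = 0.0798), changed sign to 0.013 with DESeq2, 0.0087 with RLE factors and 0.012 with the replicate block, and ran between -0.042 and 0.022 with 1 mouse left out. The count of higher class I genes was 4 without TMM and 4 with the replicate block, and 6 to 9 with 1 mouse left out. With the block B2m (0.49), H2-K1 (0.41) and H2-T23 (0.42) lost their calls. Same-numbered mice correlated at -0.28 to 0.23, over 0.1 in 2 of 5 pairs, and 2 CD mice correlated best with their own number. With 5 pairs, whether the numbers pair the mice cannot be told from these values. Over all genes 1636 were higher and 4863 lower without TMM, and 1829 were lower with the block. Without TMM, 2 loading factors, 5 NLRC5 partners and 1 CD1d loading gene were lower, and 1 peptidase, 6 interferon genes and 0 CD1d loading genes were higher. With the block, 0 standard proteasome subunits, 1 peptidase and 0 NLRC5 partners were lower, and 1 peptidase, 0 CD1d loading genes and 0 receptors were higher. With DESeq2, 1 standard subunit and 0 peptidases were lower, and 2 CD1d loading genes were higher. RLE factors and limma-voom each left 1 standard subunit and 1 peptidase lower, and upper quartile factors 2 NLRC5 partners. With no filter, 0 standard subunits and 0 peptidases were lower and 1 peptidase was higher. The strict filter gave 2 higher and 0 lower further class I genes, 2 lower NLRC5 partners and 0 higher receptors. Thinning, added after the data were examined, gave 1 lower standard subunit, 0 lower peptidases and 0 higher receptors. With 1 mouse left out, 0 to 1 loading factors and 0 to 1 NLRC5 partners were higher, 0 to 3 standard subunits, 0 to 2 peptidases and 0 to 2 NLRC5 partners were lower, and 1 to 2 peptidases and 0 to 2 CD1d loading genes were higher. The difference of FFD minus CD mice in the log2 ratio of H2-K1 to H2-D1 was -0.21 to -0.15 there. Among genes that did not pass, Ganab (-0.10) and Psmb10 (-0.062) turned without TMM, Pomp ran between -0.12 and 0.0065 and Ulbp1 between -0.14 and 0.051 with 1 mouse left out, and Ulbp1 was 0.054 with the block and 0.092 with thinning. The causes were not tested. The depth of FFD mouse 4 limits genes near 1 CPM.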
